A study of Mus musculus with 16 samples.

Results

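The genes of the proteasome, the large protease that degrades ubiquitin-tagged proteins, were followed across sorted blood stem and progenitor cells of the mouse. Members were chosen by symbol alone: every gene of the array annotation named Psm with a letter from a to g and a number, which gave 47 genes of the 18194 genes that had a probe set with 1 symbol. They comprised 7 alpha ring and 7 constitutive beta ring subunits of the 20S core, 3 immunoproteasome subunits, 2 core subunits known from single tissues (Psma8 and Psmb11), 6 ATPases and 11 other subunits of the 19S regulatory particle, 7 assembly chaperones, 3 activators and the inhibitor Psmf1. Psme2, a partner of Psme1 in the 11S activator, had a single probe set that also carried the symbol Psme2b and was left out. Where a gene had several probe sets, the one with the highest mean was read. Levels are probe set intensities as deposited, and changes are differences of log2(intensity + 16), so the change of a dim gene is understated.

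RNA was measured on 16 Affymetrix mouse arrays in 6 groups, all from bone marrow of mice with the C57Bl6 background that are labelled female. Hematopoietic stem cells (HSC), which sustain blood formation for life, came from young wild-type mice aged 9 to 12 weeks (n = 3), old wild-type mice aged 24 months (n = 3), 32-week wild-type mice with the genotype Polgtm1Lrsn+/+ (n = 3) and 32-week Mutator mice with the genotype Polgtm1Lrsn-/- (n = 3). Common lymphoid progenitors (CLP), from which lymphocytes develop, came from wild-type mice aged 8 to 12 weeks and were sorted as Ly6D- (n = 2) or Ly6D+ (n = 2). Mutator mice carry a mitochondrial DNA polymerase without proofreading in every cell, so all their tissues, and not blood stem cells alone, gather mitochondrial DNA mutations. The series set HSC of these mice beside those of young and old wild-type mice to compare the mutator state with normal ageing. Each array was made from 4000 to 7000 sorted cells. Replicates are labelled biological, while neither the number of animals behind a sample nor the HSC sorting gate is stated in the labels. In such bulk RNA, a smaller share of cells of a type and less RNA per cell cannot be told apart.

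In the 20S core, outer alpha rings gate a chamber formed by inner beta rings, and Psmb5, Psmb6 and Psmb7 encode the subunits that cut proteins. In blood cells and after interferon, newly made cores take up Psmb8, Psmb9 and Psmb10 in place of Psmb5, Psmb6 and Psmb7, and this immunoproteasome favours peptides that fit MHC class I. The 19S particle binds ubiquitin chains, removes them and unfolds the substrate with its ring of ATPases, while 11S activators such as Psme1 open the gate without ubiquitin. Genes of the constitutive subunits are known targets of the transcription factors NRF1 and NRF2, and those of the immunoproteasome are induced by interferon.

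Promoter windows from 250 bases before to 50 bases after the gene start were taken from RefSeq (build GRCm38.p6) and matched 39 of the 47 genes, with 41 windows. The letters of 4 motifs were searched on both strands: TGACNNNGC, the antioxidant response element of NRF1 and NRF2, CCAAT, the CCAAT box, GAAA followed by 2 further bases and GAAA, the interferon-stimulated response element (ISRE), and TTCNNNGAA, the interferon gamma activated site. Windows of proteasome genes held TGACNNNGC in 14.6% (6 of 41), against 12.4% of all 32851 windows. The shares were 34.1% against 37.4% for CCAAT, 12.2% (5 of 41) against 3.44% for the ISRE and 7.32% against 8.3% for TTCNNNGAA. None of the 3 immunoproteasome windows held the ISRE or TGACNNNGC, and the Psmb10 window held none of the 4 motifs. The windows shown are those of the constitutive subunits Psmb5 and Psmb6, of Psmb8 and Psmb9, which are immunoproteasome genes on chromosome 17, and of the activator Psme1, because the results below turn on these genes. Capitals mark the motif: TGACNNNGC 47 bases before the start in Psmb5 (chr14:54617946-54618245, minus strand) and 9 bases before it in Psmb6 (chr11:70525107-70525406, plus strand), TTCNNNGAA 97 bases before it in Psmb8 (chr17:34197945-34198244, plus strand), CCAAT read on the opposite strand 8 bases before it in Psmb9 (chr17:34187281-34187580, minus strand), and the ISRE read on the opposite strand 9 bases after it in Psme1 (chr14:55578244-55578543, plus strand). A match describes the letters and does not show a bound site.
Psmb5: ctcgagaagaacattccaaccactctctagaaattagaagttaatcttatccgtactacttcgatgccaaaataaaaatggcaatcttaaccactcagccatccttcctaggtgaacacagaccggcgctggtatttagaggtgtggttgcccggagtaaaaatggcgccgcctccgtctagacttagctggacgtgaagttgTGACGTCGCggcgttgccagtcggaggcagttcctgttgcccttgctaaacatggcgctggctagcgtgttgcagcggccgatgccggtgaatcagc
Psmb6: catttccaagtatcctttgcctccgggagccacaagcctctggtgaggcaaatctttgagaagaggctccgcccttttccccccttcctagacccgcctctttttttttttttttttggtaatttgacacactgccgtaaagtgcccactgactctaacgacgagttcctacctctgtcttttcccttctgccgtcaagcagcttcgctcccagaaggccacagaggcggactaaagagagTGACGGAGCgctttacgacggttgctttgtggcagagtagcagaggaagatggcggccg
Psmb8: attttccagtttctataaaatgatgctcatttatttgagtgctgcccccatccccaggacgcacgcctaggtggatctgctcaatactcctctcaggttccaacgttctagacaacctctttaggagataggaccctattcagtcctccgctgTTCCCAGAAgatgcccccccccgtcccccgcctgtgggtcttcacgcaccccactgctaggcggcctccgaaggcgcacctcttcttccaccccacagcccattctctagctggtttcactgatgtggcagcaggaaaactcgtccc
Psmb9: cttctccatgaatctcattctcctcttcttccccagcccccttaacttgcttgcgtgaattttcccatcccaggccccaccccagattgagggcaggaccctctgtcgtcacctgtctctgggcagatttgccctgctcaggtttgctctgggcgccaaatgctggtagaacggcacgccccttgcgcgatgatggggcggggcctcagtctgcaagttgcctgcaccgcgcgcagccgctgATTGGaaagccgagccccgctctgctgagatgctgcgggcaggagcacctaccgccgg
Psme1: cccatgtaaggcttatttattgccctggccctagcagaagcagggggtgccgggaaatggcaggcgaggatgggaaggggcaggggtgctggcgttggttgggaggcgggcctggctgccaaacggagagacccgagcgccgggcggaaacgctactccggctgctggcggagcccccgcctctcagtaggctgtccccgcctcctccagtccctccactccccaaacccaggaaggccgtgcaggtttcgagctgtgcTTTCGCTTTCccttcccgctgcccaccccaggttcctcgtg

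The sorted cells carried the markers of their labels. The summed intensity of the 6 HSC marker genes on the array was 4307 to 13095 in HSC and 364 to 817 in CLP, and that of the 5 CLP marker genes was 115 to 322 in HSC and 16434 to 22789 in CLP. RNA quality differed between groups. The log2 ratio of the 3' to the 5' actin control signal, which grows as RNA is shorter or copied less fully, was 2.19 to 2.25 in old, 2.37 to 2.60 in young, 4.20 to 5.19 in 32-week wild-type, 4.67 to 5.16 in Mutator and 2.10 to 3.81 in CLP arrays. The median SD of the 46 proteasome genes tested, on the log2 scale, was 0.136 in young and 0.119 in old HSC, against 0.506 in 32-week wild-type and 0.375 in Mutator HSC. All arrays are labelled female, yet 32-week wild-type replicate 3 and the 4 CLP arrays had Xist at 9.12 to 16.8 and the Y-linked Eif2s3y at 423 to 758, while the other arrays had Xist at 3507 or more. Of the 47 genes, Psmb11, the subunit of the thymus proteasome, was at 11.4 to 16.8 on every array and was not tested.

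**Figure D1:**
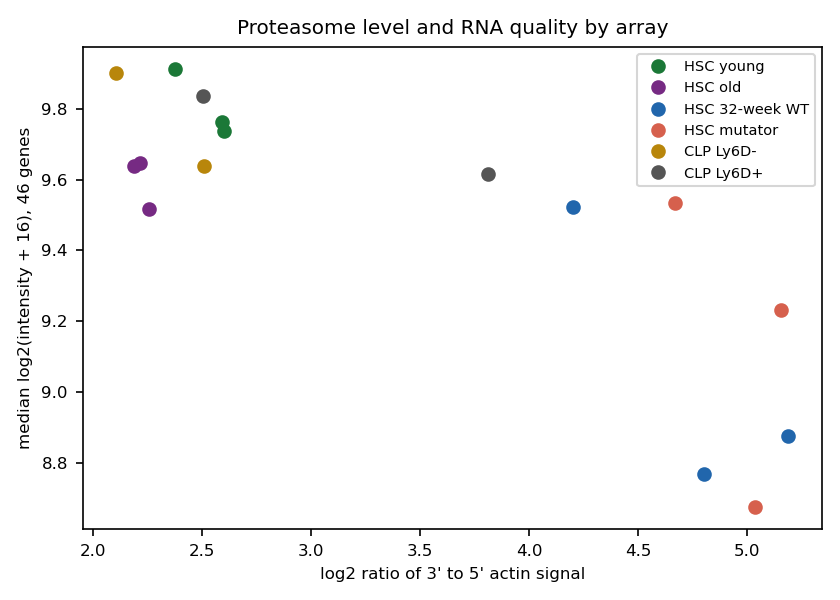
Median log2(intensity + 16) of the 46 proteasome genes tested (vertical axis) against the log2 ratio of 3' to 5' actin signal (horizontal axis), 1 point per array, coloured by group. The 6 arrays of 32-week HSC lie at ratios of 4.20 to 5.19 and hold the 4 lowest proteasome medians.

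**Figure D2:**
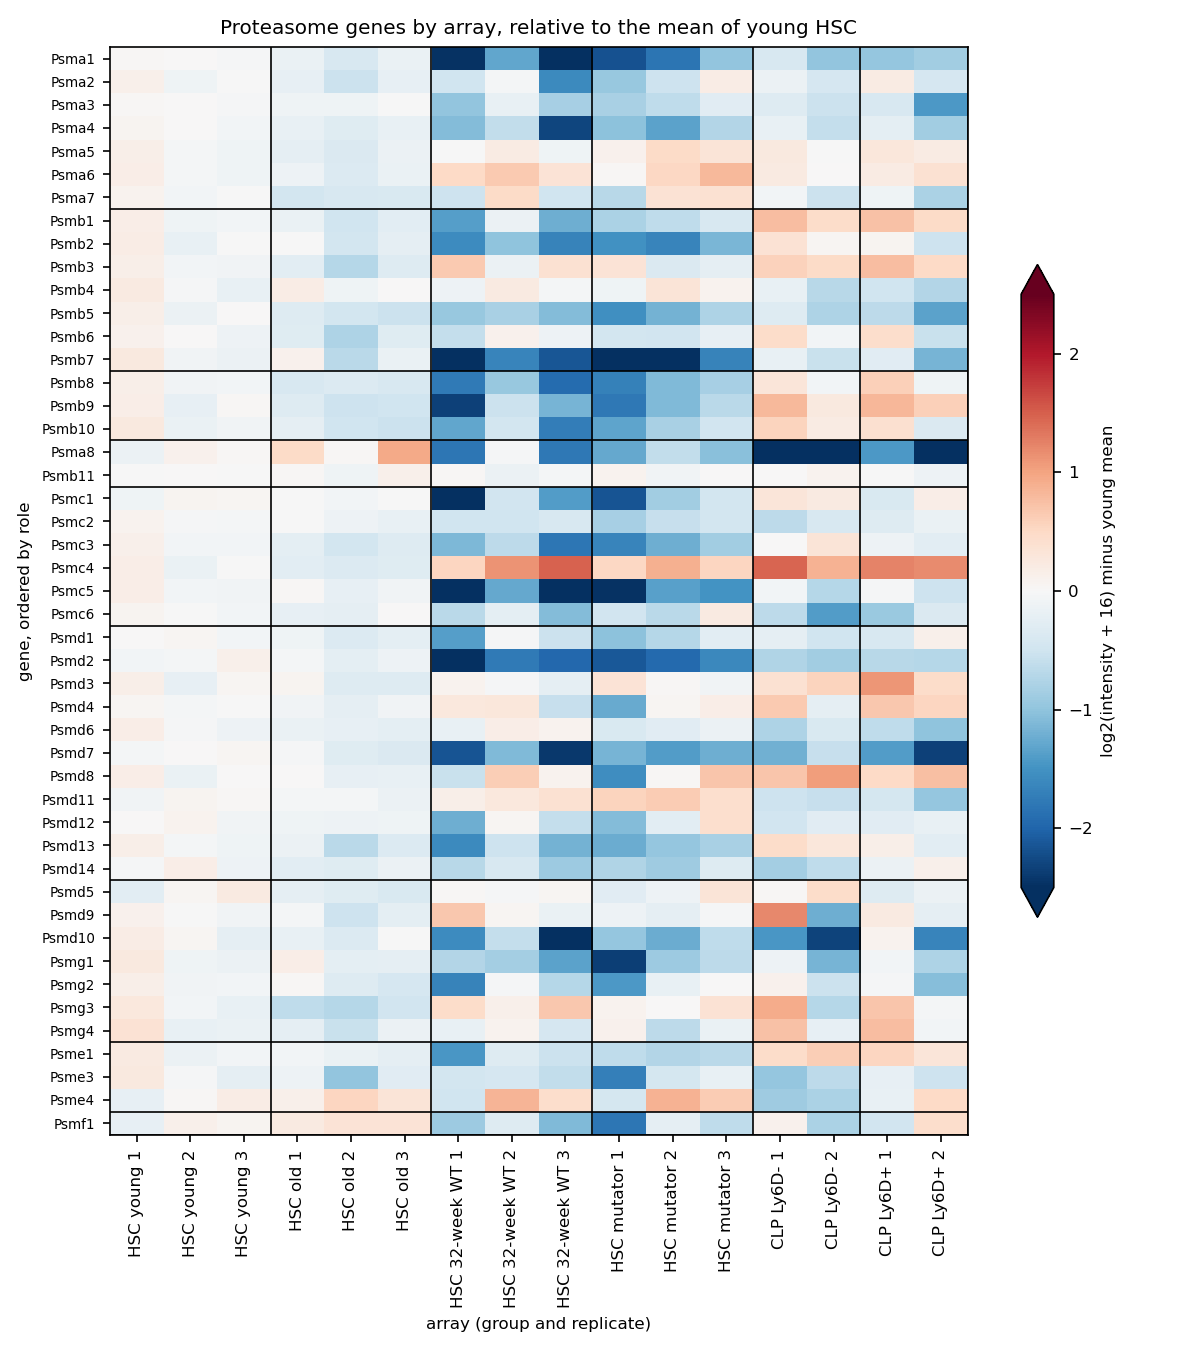
Difference of log2(intensity + 16) from the mean of the 3 young HSC arrays for each of the 47 genes (rows, by role) on each of the 16 arrays (columns, by group). Old HSC arrays are mostly pale blue, 32-week HSC arrays hold deep blue rows such as Psma1, Psmb7, Psmc5 and Psmd2, and Psmc4 is red in all 32-week and CLP arrays.

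Old HSC had slightly lower signal than young HSC for nearly the whole complex, but no single gene passed the test. The log2 change was below 0 for 42 of the 46 genes, with a median of -0.23, while over all 13482 genes tested the median was -0.01 and 51.8% lay below 0. With limma's moderated test and Benjamini-Hochberg adjustment, 0 of 46 proteasome genes were called at an adjusted p under 0.05, against 1.31% of all genes (1.05% higher and 0.252% lower), and 3 had an unadjusted p under 0.05. The arrays of the groups did not overlap, with old below young, for 22 of the 46 genes, against 13.2% of all genes. In the other direction only Psmf1, the inhibitor of the 20S core, had no overlap (14.0% of all genes), with 279, 303 and 303 in old and 202, 258 and 249 in young HSC. The probe set used for Psmf1 changed by 0.31. Its other probe sets changed by 0.04, -0.13 and 0.48, the last being the dimmest, so they differed in direction.

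By role, the median change from young to old was -0.42 for the 3 immunoproteasome genes, -0.31 for the beta ring, -0.27 for the assembly chaperones, -0.24 for the alpha ring, -0.19 for the 19S non-ATPase subunits, -0.15 for the activators and -0.12 for the 19S ATPases. Every alpha ring, immunoproteasome, 19S and chaperone gene tested had a change below 0, and in the beta ring Psmb4 was the exception with 0.03. The genes above 0 were Psmb4, Psme4, Psmf1 and Psma8. RNA quality moved with this comparison: the actin ratios of old and young arrays did not overlap, and with the ratio as a covariate 0 genes were called (1.19% of all genes), the median change was -0.45 and the values for Psmb8, Psmb9 and Psmb10 were -0.69, -0.73 and -0.81. Markers of other cells differed alongside: the summed signal of the 8 macrophage genes was 308 to 766 in young and 197 to 200 in old HSC, and that of the 8 neutrophil genes on the array was 1320 to 5718 and 171 to 1555. Erythroid genes summed to 105.5 to 145.5 in young and 51.6 to 77.3 in old HSC, and CLP genes to 210 to 243 and 115 to 178. The erythroid difference was mostly that of Klf1 (means of 99.6 and 42.7), and the CLP difference mostly that of Flt3 (162 and 96.1). Hba-a1, Il7r and Rag1 of these lists were below the 40th percentile on every young and old array. The HSC marker sum was higher in old HSC, at 10456 to 13095 against 6923 to 8824 in young HSC. The part of these markers in the result was not tested.

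Psmb5, which encodes the subunit with chymotrypsin-like activity, read 2048, 1687 and 1859 in young and 1488, 1354 and 1281 in old HSC. Every old array was below every young one. The change was -0.43 ± 0.187 (SE), with a limma adjusted p of 0.498. Psmb6, with caspase-like activity, read 1291, 1204 and 1087 in young and 963, 694 and 960.4 in old HSC, again without overlap (-0.46 ± 0.201, limma adjusted p = 0.512). Psmb7, with trypsin-like activity, overlapped between the groups, at 763, 597 and 573 in young and 691, 395 and 572 in old HSC (-0.24 ± 0.436).

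The 3 immunoproteasome genes each lay lower in all old arrays. Psmb8, which takes the place of Psmb5, read 1355, 1162 and 1176 in young and 921, 967 and 926 in old HSC (-0.38 ± 0.263, limma adjusted p = 0.923). Psmb9, which takes the place of Psmb6, read 924, 715 and 843 in young and 655, 573 and 581 in old HSC (-0.44 ± 0.39, limma adjusted p near 1). Psmb10, which takes the place of Psmb7, read 822, 617 and 646 in young and 588, 483 and 467 in old HSC (-0.42 ± 0.303, limma adjusted p = 0.95). The spread used by this test came from all 12 HSC arrays, in which the 32-week groups varied most. Psmg3, an assembly chaperone of the core, had the smallest p of the 46 genes: it read 354, 280.4 and 256 in young and 185, 173 and 206 in old HSC (-0.61 ± 0.182, limma adjusted p = 0.197). When only the 6 young and old arrays were fitted, 2 genes passed, Psmg3 (-0.61 ± 0.137, limma adjusted p = 0.0364) and the alpha ring gene Psma7 (-0.42 ± 0.0925, limma adjusted p = 0.0348), against 7.75% of all genes in that fit.

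**Figure D3:**
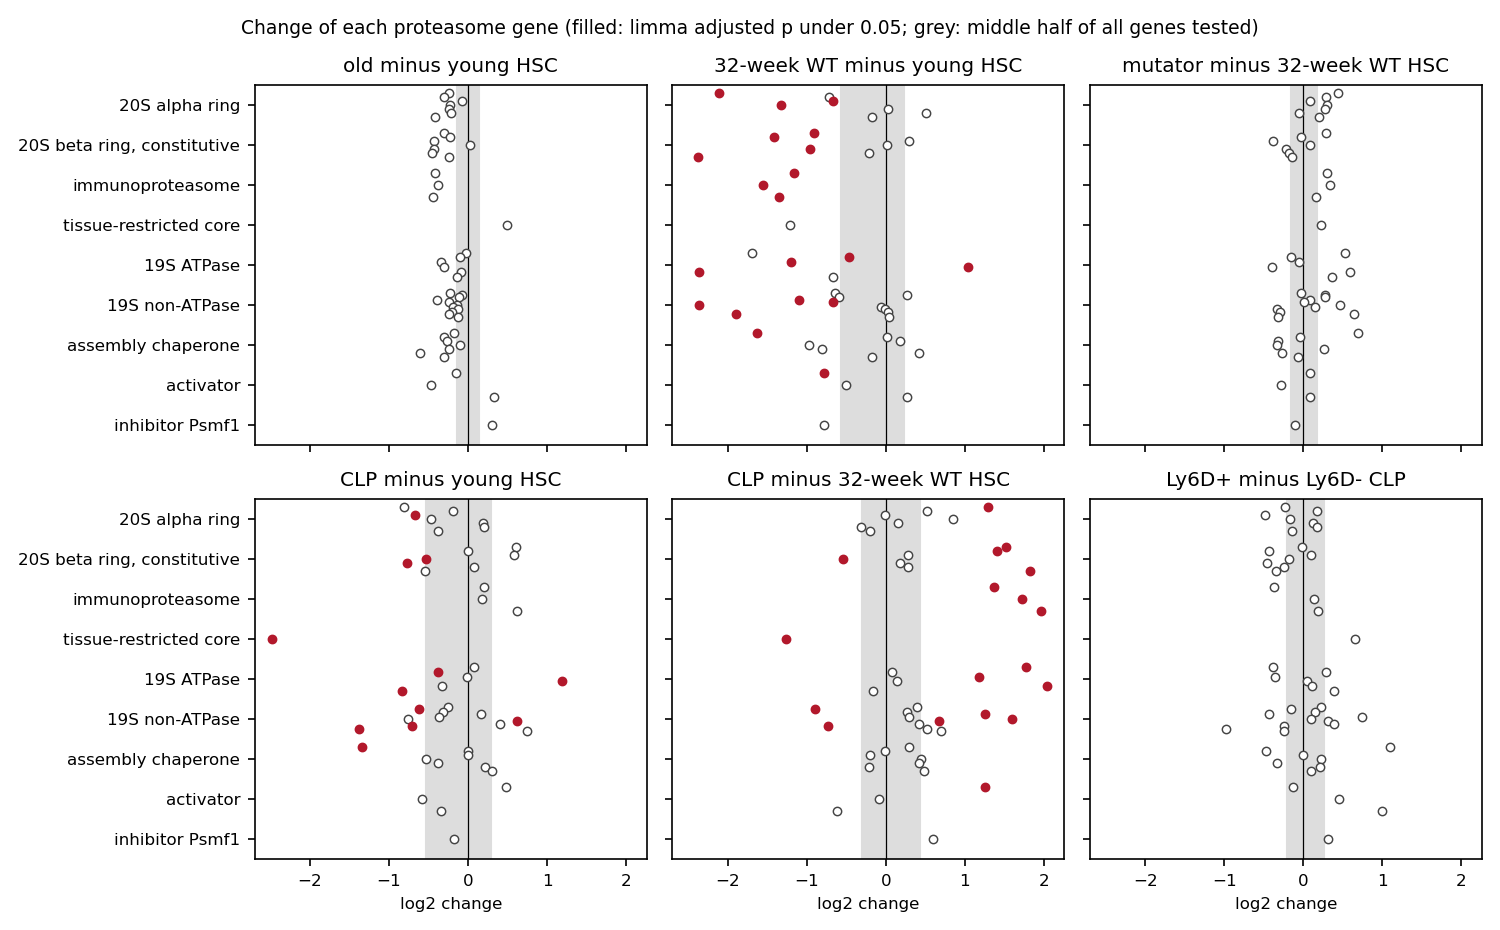
Log2 change of each of the 46 genes tested (points) by role (rows) in 6 comparisons, with filled points for a limma adjusted p under 0.05 and a grey band from the lower to the upper quartile of all genes tested. In old minus young HSC 42 points lie left of 0 and none is filled, in 32-week wild-type minus young HSC 20 are filled, and in CLP minus 32-week wild-type HSC 18 are filled.

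Wild-type HSC at 32 weeks had much lower signal than young HSC for many core, immunoproteasome and 19S genes. Of the 46 genes, 20 (43.5%) were called by limma, 19 lower and 1 higher, against 24.2% of all genes called, 17.7% lower and 6.42% higher. With a stricter filter at the 60th percentile, which leaves out more dim genes, 21 of 46 were called against 32.2% of all genes. The arrays did not overlap for 24 genes that were lower, against 25.4% of all genes, and for 3 that were higher, against 12.9%. The median change of the proteasome genes was -0.67, against -0.04 for all genes. Calls reached 3 of 7 alpha ring, 4 of 7 beta ring, 3 of 3 immunoproteasome, 4 of 6 ATPase, 4 of 11 non-ATPase, 1 of 7 chaperone and 1 of 3 activator genes. These groups came apart in RNA quality as well, with actin ratios that did not overlap, so age and RNA quality cannot be told apart here. Marker sums did not overlap either: macrophage genes were at 191 to 292 in 32-week wild-type and 308 to 766 in young HSC, plasmacytoid dendritic cell genes at 72.9 to 87.1 and 150.1 to 223, and HSC genes at 4307 to 6398 and 6923 to 8824. Among the plasmacytoid dendritic cell genes the difference was mostly that of Bst2, with means of 51.2 and 148. In the HSC sum it was mostly that of Kit (1024 and 3193) and Mecom (1461 and 2510). Means of Slamf1 (416 and 309), Procr (1546 and 1478) and Fgd5 (717 and 555) were higher at 32 weeks. The part of these markers in the result was not tested.

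Among the catalytic subunits, Psmb7 fell most, from 763, 597 and 573 in young to 49.6, 191 and 132 in 32-week HSC (-2.37 ± 0.436, limma adjusted p = 0.00307). Psmb5 fell to 953, 1048 and 867 (-0.95 ± 0.187, limma adjusted p = 0.00441). Psmb6 read 778, 1282 and 1096, overlapped the young arrays and was not called (-0.21 ± 0.201), and under quantile normalization its change was 0.11. Of the 3 constitutive catalytic genes, Psmb7 and Psmb5 passed the test and Psmb6 did not. All 3 immunoproteasome genes fell without overlap: Psmb8 to 348, 628 and 310.4 (-1.55 ± 0.263, limma adjusted p = 0.00215), Psmb9 to 149, 561 and 361 (-1.34 ± 0.39, limma adjusted p = 0.0276) and Psmb10 to 271, 499.6 and 196 (-1.16 ± 0.303, limma adjusted p = 0.0173).

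In the rest of the core, the alpha ring gene Psma1 fell from 2671, 2625 and 2564 to 461, 1054 and 429.97 (-2.11 ± 0.342), and the beta ring gene Psmb2 from 840.005, 646 and 734 to 236, 356 and 221 (-1.42 ± 0.213). In the 19S particle, Psmd2, a large scaffold subunit of the base, fell from 1965, 2006 and 2252 to 191, 599 and 516 (-2.35 ± 0.328), and the ATPase gene Psmc5 from 611, 518 and 508 to 44.8, 216 and 75.1 (-2.37 ± 0.418). None of these overlapped between the groups. Psmd7, a lid subunit that pairs with the deubiquitinase Psmd14, fell from 299, 315 and 320.3 to 57.4, 136 and 45 (-1.90 ± 0.273). Psmd10, known as gankyrin, a chaperone of the ATPase ring, fell from 267, 242 and 197 to 68.1, 149 and 21.7 (-1.63 ± 0.405), and the activator Psme1 from 1867, 1444 and 1536 to 577, 1279 and 1096 (-0.77 ± 0.244). The limma adjusted p of these genes was 0.0389 or less. Psmc4, another ATPase of the same ring as Psmc5, rose from 1065, 845 and 938 to 1379, 2085 and 2643 (1.04 ± 0.216, limma adjusted p = 0.00562).

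Several of these calls rested on the choice of arrays, scale or probe set. Leaving out 1 array at a time, 13 of the 20 calls held in all 6 fits, among them Psmb5, Psmb7, Psmb8, Psma1, Psmb2, Psmd2, Psmd7, Psmd10, Psmc4 and Psmc5. Without young replicate 1 the count was 13 (16.5% of all genes called). Psmb9 lost its call without any of the young replicates or without 32-week wild-type replicate 1 (-1.75 to -0.85, adjusted p up to 0.0837), Psmb10 without young replicate 1 or 32-week wild-type replicate 3 (-1.52 to -0.87, adjusted p up to 0.0665), and Psme1 without any of the young replicates or without 32-week wild-type replicate 1 (-0.998 to -0.43, adjusted p up to 0.129). The other calls lost in some fits were those of Psma3, Psmb1, Psmc2 and Psmd14. With the 6 arrays of these groups fitted alone the count was 12 (17% of all genes), and under quantile normalization it was 17 (22.7% of all genes), with 4 higher and 13 lower and a median change of -0.43. With the actin ratio as a covariate 0 genes were called, 0% of all genes passed, the median change turned to 0.68, and the values for Psmb8, Psmb9 and Psmb10 were 0.67, 0.76 and 1.67. Their limma adjusted p was 0.52 or more. Because the ratio did not overlap between these groups, this fit cannot separate age from RNA quality. Where 2 or more probe sets of a gene were above background, they differed in the direction of change for 13 of 21 genes, against 6 of 21 from young to old. The second probe set of Psmb8 changed by 0.74, that of Psmc4 by -0.51 and that of Psmd7 by 0.02.

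**Figure D4:**
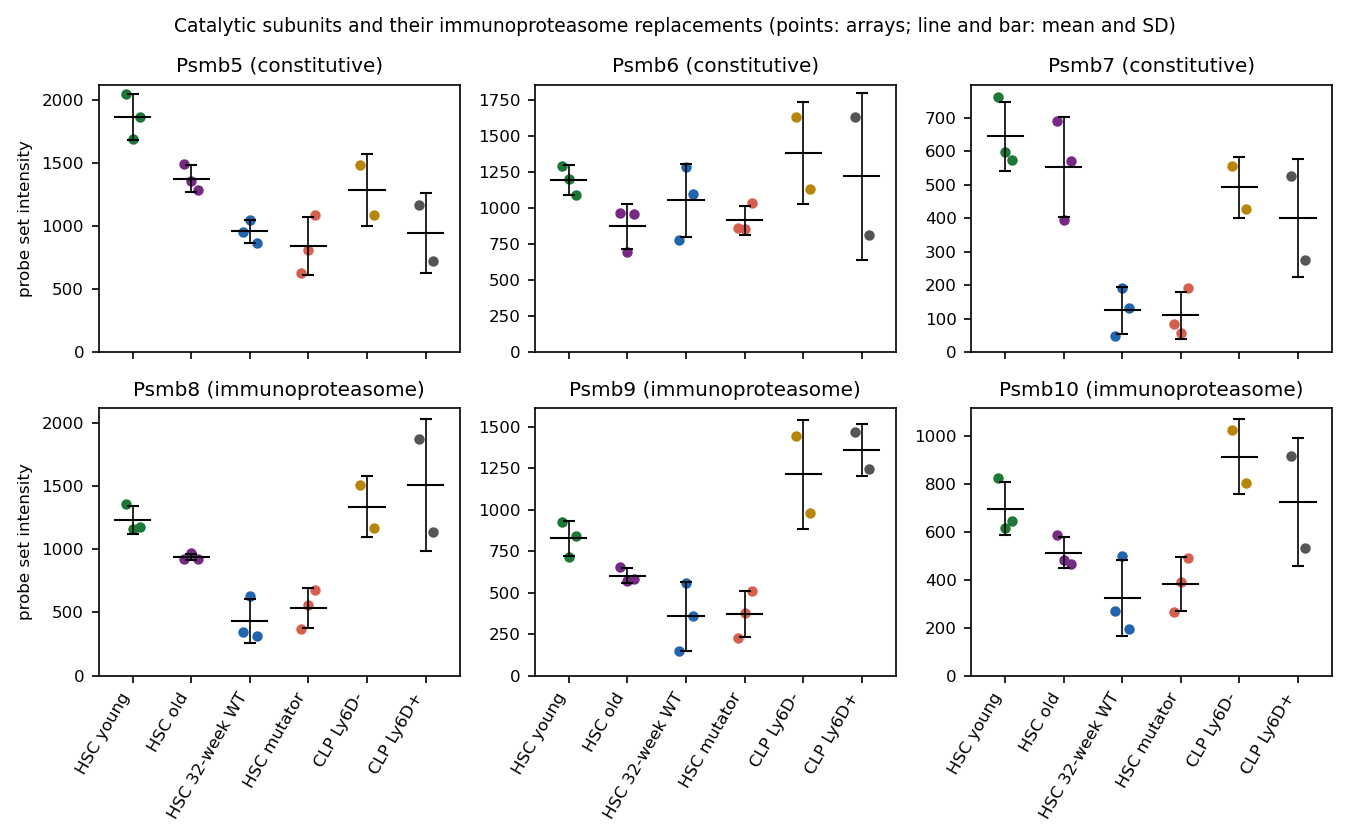
Probe set intensity of the 3 constitutive catalytic genes (top) and of the immunoproteasome gene that replaces each (bottom) in the 6 groups, with points for arrays and lines and bars for the mean and SD. Old HSC arrays lie below young ones for all but Psmb7, the 32-week groups have the lowest means for Psmb7 to Psmb10, and both CLP groups have means above young HSC for the 3 immunoproteasome genes.

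Mutator HSC did not differ detectably from wild-type HSC of the same age in any proteasome gene. By limma 0 of 46 genes were called, as were 0% of all genes, and 1 gene had an unadjusted p under 0.05. The median change was 0.09, with 26 genes above and 20 below 0, and its sign rested on single arrays: it was -0.07 without 32-week wild-type replicate 1 or Mutator replicate 3, -0.0096 without wild-type replicate 3, 0.20 without Mutator replicate 1 and 0.28 without wild-type replicate 2. The smallest p belonged to Psmd7, at 130.3, 108 and 125 in Mutator and 57.4, 136 and 45 in 32-week wild-type HSC (0.64 ± 0.273, limma adjusted p = 0.662). Psmd11, a 19S lid subunit, was the 1 gene whose arrays did not overlap, against 3.11% of all genes higher and 2.97% lower, at 2636, 2789 and 2399 in Mutator and 1967, 2157 and 2338 in wild-type HSC (0.28 ± 0.129, limma adjusted p = 0.684). The lid gene Psmd6 lay lower, at 1228, 1299 and 1435 against 1392, 1792 and 1703 (-0.29 ± 0.144, limma adjusted p = 0.701).

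The immunoproteasome genes overlapped between the 2 genotypes. Psmb8 read 368, 562 and 681 in Mutator HSC (0.34 ± 0.263), Psmb9 229, 375 and 509 (0.16 ± 0.39) and Psmb10 267, 388 and 490.5 (0.29 ± 0.303). In all 3 genes Mutator replicate 1, the array with the lowest proteasome median of all 16, was lowest and replicate 3 highest. Without 32-week wild-type replicate 2, Psmd7 was called (1.03 ± 0.16, limma adjusted p = 0.0181), as were 1.64% of all genes, and with the actin ratio as a covariate Psmd10 was called (1.11 ± 0.178, limma adjusted p = 0.0417), as were 0.223% of all genes.

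The effect of the Mutator genotype was also set against that of old age in a single contrast: the young-to-old change was subtracted from the difference between Mutator and 32-week wild-type HSC. By limma 0 of 46 genes were called, against 0.512% of all genes (0.0519% higher and 0.460% lower), and 2 had an unadjusted p under 0.05. The contrast was above 0 for 36 of 46 genes, with a median of 0.27 against 0.00 for all genes, including all 7 alpha ring, all 7 beta ring and all 3 immunoproteasome genes. Over all genes tested, 49.4% lay below 0. The smallest p values were those of the alpha ring gene Psma5 (0.53 ± 0.213, limma adjusted p = 0.563), Psmd7 (0.88 ± 0.385, limma adjusted p = 0.632) and Psmd11 (0.36 ± 0.183, limma adjusted p = 0.717). For Psmb8, Psmb9 and Psmb10 it was 0.72 ± 0.372, 0.60 ± 0.551 and 0.72 ± 0.429. The median was 0.16 without Mutator replicate 3, 0.42 without 32-week wild-type replicate 2 and 0.57 with the actin ratio as a covariate. The count was 1 (Psmd7) without 32-week wild-type replicate 2, where 1.01% of all genes were called, and 3 (Psmb10, Psmd7 and Psmd10) with the covariate, where 1.04% were.

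CLP were set against young HSC, the group nearest in age, as the mean of the Ly6D- and Ly6D+ groups. All CLP arrays had low Xist and an Eif2s3y signal of 423 to 758. The young HSC arrays had Xist at 3507 to 8041 and Eif2s3y at 8.14 to 9.25. Cell type and this sex-linked signal cannot be told apart in this comparison. The proteasome genes were called at a share near that of other genes: limma called 12 of 46 (26.1%), 10 lower and 2 higher, against 30.7% of all genes, 18.2% lower and 12.5% higher. With a stricter filter at the 60th percentile it called 11 of 46 against 39.2% of all genes. The arrays did not overlap for 14 lower genes (22.2% of all genes) and 7 higher ones (17.9%), and the median change was -0.22, against 0.01 for all genes, but -0.13 under quantile normalization and -0.05 with all probe sets averaged. Psma8, a core subunit known from male germ cells, fell most, from 164, 199 and 188 in young HSC to 13.6 and 11.6 in Ly6D- and 58 and 11.4 in Ly6D+ CLP (-2.47 ± 0.423, limma adjusted p = 0.000684). Of these CLP values, 13.6, 11.6 and 11.4 lay below the 40th percentile of their arrays, where a probe set is not told from background, so the size of this fall is uncertain. Psmb5 fell from 2048, 1687 and 1859 to 1483 and 1083 in Ly6D- and 1168 and 722 in Ly6D+ CLP (-0.78 ± 0.203, limma adjusted p = 0.0107). Both genes had every CLP array below every young HSC array.

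The 19S genes moved in both directions. Psmd7 fell to 126 and 203 in Ly6D- and 108 and 48.8 in Ly6D+ CLP (-1.38 ± 0.291, limma adjusted p = 0.00297), and Psmd11 to 1246 and 1188 and to 1313 and 903 (-0.63 ± 0.136, limma adjusted p = 0.00355). Psmd6 fell to 923 and 1216 and to 1014 and 779.9, from 1777, 1562 and 1456 in young HSC (-0.71 ± 0.147, limma adjusted p = 0.00271). These lid genes did not overlap between CLP and young HSC. Psmc4 rose to 2631 and 1733 in Ly6D- and 2266 and 2159 in Ly6D+ CLP, again without overlap (1.19 ± 0.207, limma adjusted p = 0.000805). Psmd3, a lid subunit, rose from 347, 267 and 324 to 408 and 462 and to 682 and 435 (0.62 ± 0.181, limma adjusted p = 0.0192).

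None of the immunoproteasome genes was called against young HSC, nor were Psmb6 (0.07 ± 0.242) and Psmb7 (-0.55 ± 0.407). Psmb8 read 1508 and 1165 in Ly6D- and 1874 and 1137 in Ly6D+ CLP (0.18 ± 0.258), and without Ly6D+ replicate 1 its change was -3e-04. Psmb9 read 1447 and 982 in Ly6D- and 1469 and 1248 in Ly6D+ CLP, all above young HSC (0.62 ± 0.352, limma adjusted p = 0.211). Psmb10 read 1024 and 802 and 914 and 534 and overlapped (0.20 ± 0.292). The activator Psme1 read 2215 and 2475 and 2327 and 1982, above all young arrays (0.48 ± 0.216, limma adjusted p = 0.115).

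Of the 12 calls between CLP and young HSC, 6 held in all 7 fits that left out an array (Psma8, Psmb5, Psmc4, Psmd11, Psmd6 and Psmd7). The count was 7 without young replicate 1 (24% of all genes called), 6 without young replicate 2 (22.4%), and 6 when young replicates 2 and 3, the closest pair of that group, were averaged as 1 (22.4%). The other 6 calls were Psmd3, which was lost without young replicate 2, Ly6D+ replicate 1 or Ly6D- replicate 2 (0.46 to 0.78, adjusted p up to 0.0977), and Psma3, Psmb4, Psmc2, Psmc6 and Psmd10, whose calls were each lost in 4 to 6 of the 7 fits. Among these, Psmd10, a gene of the X chromosome, overlapped between the groups, at 74.9 and 34.1 in Ly6D- and 249 and 63.2 in Ly6D+ CLP (-1.34 ± 0.458, limma adjusted p = 0.0413). With the actin ratio as a covariate 13 genes were called, against 30.2% of all genes. The summed neutrophil markers (8 genes) were 4578 to 7884 in Ly6D- and 1827 to 2373 in Ly6D+ CLP, and the plasmacytoid dendritic cell markers (3 genes) 1326 to 1668 and 406 to 484, against 150.1 to 223 in young HSC. Mpo had the highest mean of the neutrophil genes in CLP, at 3869 in Ly6D- and 1906 in Ly6D+ cells. In Ly6D- CLP the plasmacytoid sum was mostly Ccr9, with means of 1208 there, 188 in Ly6D+ CLP and 7.86 in young HSC. Siglech of the same list was lower in Ly6D- (27.9) than in Ly6D+ CLP (45.2). The part of these markers in the results was not tested.

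The same CLP arrays were also set against 32-week wild-type HSC, so this comparison shares them with the one before. Limma called 18 of 46 genes (39.1%), 14 higher and 4 lower, against 28.0% of all genes, 15.8% higher and 12.2% lower. With a stricter filter at the 60th percentile, which leaves out more dim genes, it called 19 of 46 against 35.7% of all genes. The arrays did not overlap for 14 higher genes (13.8% of all genes) and 3 lower ones (11.2%). All 3 immunoproteasome genes were higher in CLP: Psmb9 by 1.96 ± 0.352 (limma adjusted p = 0.00104), Psmb8 by 1.73 ± 0.258 (limma adjusted p = 0.000273) and Psmb10 by 1.36 ± 0.292 (limma adjusted p = 0.00355), with no overlap in any of them. The second probe set of Psmb8, dimmer than the one used, changed by only 0.11. Psme1, which serves with the immunoproteasome, was higher by 1.25 ± 0.216 (limma adjusted p = 0.000776). Psmb5 and Psmb6 were not called (0.18 ± 0.203 and 0.28 ± 0.242), and Psmb7 was higher by 1.83 ± 0.407 (limma adjusted p = 0.00466).

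Other large differences were those of Psmc5 (2.03 ± 0.384), Psmc1 (1.77 ± 0.512), Psmd2 (1.60 ± 0.286), Psmb1 (1.52 ± 0.246), Psmb2 (1.41 ± 0.209) and Psma1 (1.30 ± 0.311), each with a limma adjusted p of 0.02 or less. Psmc5, for example, read 518 and 327 in Ly6D- and 529 and 377 in Ly6D+ CLP, against 44.8, 216 and 75.1. The 4 genes that were lower in CLP were Psma8 (-1.26 ± 0.423), Psmd11 (-0.89 ± 0.136), Psmd6 (-0.73 ± 0.147) and Psmb4 (-0.54), of which Psma8 overlapped and lost its call without 32-week wild-type replicate 2, Ly6D+ replicate 2 or either Ly6D- replicate (-1.62 to -0.68, adjusted p up to 0.169). Psmc1 lost its call without 32-week wild-type replicate 1 or Ly6D+ replicate 2 (1.01 to 2.38, adjusted p up to 0.0729), Psmb4 in 4 of the 7 fits, and Psmd3 without 32-week wild-type replicate 3. The second probe set of Psmb4 changed by 0.59, and the second of Psme3 by 1.35 where the one used changed by -0.09. Psmd11 had further probe sets that changed by 1.19 and 0.35 and another that changed by -0.95. In this comparison the probe sets of a gene differed in direction for 8 of 21 genes. In all, 14 of the 18 calls held in every fit that left out 1 array. With median centring the calls were 15 higher and 2 lower.

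RNA quality moved with this comparison too. With the actin ratio as a covariate 4 genes were called, all 4 lower in CLP, and 5.93% of all genes passed. In that fit Psmb8, Psmb9 and Psmb10 were at 0.22, 0.85 and -0.40, and none was called. Because 32-week wild-type replicate 3 shared the low Xist and the Eif2s3y signal of the CLP arrays, it was also used as the only HSC baseline, a choice made after seeing the data, in a fit that lets this lone array vary like the other groups. This array also had the highest actin ratio of all 16, at 5.19. In that fit 19 genes were called, 17 higher and 2 lower, against 21.4% of all genes, with Psmb8, Psmb9 and Psmb10 higher by 2.11, 1.77 and 1.94.

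Within CLP, no proteasome gene differed by the test between Ly6D+ cells, which are committed to the B lineage, and Ly6D- cells. By limma 0 of 46 genes were called, against 2.68% of all genes (1.49% higher and 1.19% lower), and 3 had an unadjusted p under 0.05. Psmd14, the deubiquitinase of the lid, read 2289.9 and 2763 in Ly6D+ and 1388 and 1624 in Ly6D- CLP (0.74 ± 0.216, limma adjusted p = 0.107). Psmd7, its partner in the lid, read 108 and 48.8 against 126 and 203 (-0.98 ± 0.381, limma adjusted p = 0.264), and Psme4, an activator also known as PA200, 615 and 994 against 372 and 399 (0.99 ± 0.439, limma adjusted p = 0.351). None of these 3 overlapped, among 6 genes without overlap that were higher (18.9% of all genes) and 5 that were lower (16.3%). The Psmd7 value of 48.8 came from Ly6D+ replicate 2, whose actin ratio of 3.81 was the highest among the CLP arrays. The fitted differences of Psmb8, Psmb9 and Psmb10 were 0.14 ± 0.338, 0.18 ± 0.461 and -0.37 ± 0.382, and the sign of each turned when single CLP arrays were left out. With the actin ratio as a covariate 1 gene was called, Psmd10 (2.46), against 1.59% of all genes.

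Each immunoproteasome gene was then read relative to the constitutive gene it replaces, as a difference of log2 values within an array. Levels of different probe sets are not comparable, so only the change of this difference between groups is read, and it was not tested. Psmb8 minus Psmb5 was -0.59 ± 0.0605 in young and -0.54 ± 0.123 in old HSC, -1.19 ± 0.404 in 32-week wild-type and -0.64 ± 0.124 in Mutator HSC, and 0.06 ± 0.0564 in Ly6D- and 0.66 ± 0.0224 in Ly6D+ CLP (SD). Both CLP groups lay above every HSC array, and the Ly6D+ arrays above the Ly6D- arrays. Psmb9 minus Psmb6 was -0.53 ± 0.194 in young and -0.51 ± 0.223 in old HSC, -1.66 ± 0.555 in 32-week wild-type and -1.33 ± 0.451 in Mutator HSC, -0.19 ± 0.0205 in Ly6D- and 0.23 ± 0.538 in Ly6D+ CLP. Here too all CLP arrays were above all HSC arrays, and the Ly6D+ arrays, at -0.15 and 0.61, both lay above the Ly6D- arrays.

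The third pair had another order. Psmb10 minus Psmb7 was 0.11 ± 0.0621 in young and -0.08 ± 0.31 in old HSC, 0.87 ± 0.0139 in Ly6D- and 0.85 ± 0.0953 in Ly6D+ CLP, but 1.32 ± 0.808 in 32-week wild-type and 1.75 ± 0.625 in Mutator HSC, where Psmb7 was low. From young to old HSC the 3 differences changed by 0.05, 0.02 and -0.18, and the arrays of the groups overlapped in each. From young HSC to CLP they changed by 0.95, 0.55 and 0.75. When all probe sets of a gene were averaged, Psmb8 minus Psmb5 changed by 1.29 from young HSC to CLP, and by 0.55 from young to 32-week wild-type HSC, where the single probe sets gave -0.60.

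**Figure D5:**
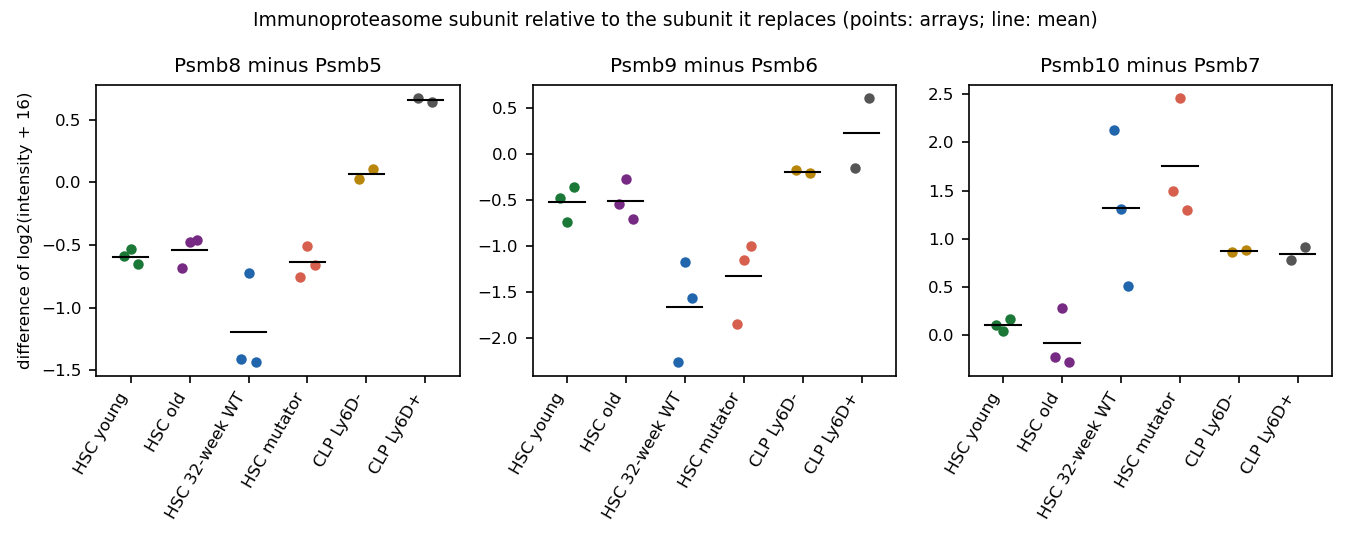
Difference of log2(intensity + 16) between each immunoproteasome gene and the constitutive gene it replaces, 1 point per array, with a line at the group mean. For Psmb8 minus Psmb5 and Psmb9 minus Psmb6 the 4 CLP arrays lie above all 12 HSC arrays, and for Psmb10 minus Psmb7 the young and old HSC arrays lie lowest.

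The other activators and the tissue-restricted Psma8 varied less regularly. Psme3, the nuclear activator PA28 gamma, read 297, 242 and 208 in young and 224, 116 and 201 in old HSC, and was called in none of the comparisons with young or 32-week wild-type HSC. Psme4 read 607, 715 and 801 in young, 773, 1024 and 888 in old, 496, 1282 and 963 in 32-week wild-type and 516, 1305 and 1098 in Mutator HSC, and was called in none either. Psma8 read 262, 188 and 369.7 in old HSC (0.49 ± 0.416 against young) and 41, 178 and 41.6 in 32-week wild-type HSC (-1.21 ± 0.416, limma adjusted p = 0.0549). In Mutator HSC it read 65.7, 114 and 80.3. Its group means were highest in old and young HSC, whose arrays overlapped, and lowest in CLP.

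Genes that work with the proteasome were read from 3 further lists. Of 23 listed partners and regulators, 18 were on the array and tested. From young to old HSC limma called 1 of them, the ubiquilin gene Ubqln2, a shuttle that brings ubiquitinated proteins to the proteasome (0.77 ± 0.16, limma adjusted p = 0.0427), against 1.31% of all genes. From young to 32-week wild-type HSC, where RNA quality differed, 12 fell (17.7% of all genes) and 1, again Ubqln2, rose (6.42%), with a median of -0.92. The largest falls were those of Ubqln1 (-2.38), the 19S-bound deubiquitinase Uchl5 (-1.64), the unfolding ATPase Vcp (-1.29) and the shuttle factor Rad23b (-1.24). In CLP 7 were lower than in young HSC (18.2% of all genes) and 0 higher, led by Ubqln1 (-2.05), the deglycosylase Ngly1 (-1.73), the nuclear import factor of proteasomes Akirin2 (-1.24) and Zfand5 (-1.23). Against 32-week wild-type HSC 5 were higher (15.8% of all genes), led by Uchl5 (0.98), the core assembly factor Pomp (0.86), the Vcp cofactor Nploc4 (0.83) and Vcp (0.74), and Ubqln2 was lower (-1.19). Ubqln4 was lower in Ly6D+ than in Ly6D- CLP (-1.12 ± 0.204, limma adjusted p = 0.0112), and no partner was called between Mutator and wild-type HSC, where Ube3c (-0.41) and Zfand5 (0.73) had the smallest p.

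Of 6 ubiquitin genes, only the activating enzyme Uba6 was measured by a probe set with 1 symbol. It fell from young to 32-week wild-type HSC, where RNA quality differed (-1.47 ± 0.283, limma adjusted p = 0.00384). Uba6 was also lower in CLP than in young HSC (-1.43 ± 0.354, limma adjusted p = 0.00801). Of 11 genes that load peptides onto MHC class I, the use of immunoproteasome products, 10 were tested. The peptide transporter gene Tap1, whose start lies beside that of Psmb9, was higher in CLP than in young HSC (1.52 ± 0.212, limma adjusted p = 0.000143) and than in 32-week wild-type HSC (1.95 ± 0.212, limma adjusted p = 1.89e-05). Nlrc5, the activator of MHC class I genes, was also higher in CLP than in young HSC (0.73 ± 0.251, limma adjusted p = 0.0406), while the chaperones Canx (-1.03) and Calr (-0.54) were lower. Against 32-week wild-type HSC, Tap2 (1.68), Pdia3 (1.66) and Irf1 (0.51) were higher as well. From young to 32-week wild-type HSC, where RNA quality differed, Pdia3 (-2.92), Canx (-1.26), Tap2 (-1.12) and Irf1 (-0.57) fell. These were 4 of the 10 genes, against 17.7% of all genes. None of the 10 was called from young to old HSC (1.31% of all genes), from wild-type to Mutator HSC (0%) or between the CLP groups (2.68%).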

How the data were processed

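The deposited values are probe set intensities on a linear scale for 45101 probe sets, as the authors deposited them; how they were summarised, background-corrected and normalized is not given in the sources used here. Biotinylated cRNA was made from total RNA of sorted cells, per the labels' protocols. All 16 arrays were used, grouped by title. No scaling was added. Probe sets with several symbols (932) were left out, 34958 had 1 symbol in the platform annotation, and the highest-mean probe set stood for a gene. Values were transformed to log2(intensity + 16), and genes had to exceed the array's 40th percentile on 3 of 12 HSC arrays (13482 genes) or 2 of 16 arrays (14344 genes).

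A mean per group was estimated by limma 3.58.1 under R 4.3.3 (lmFit, contrasts.fit and eBayes) across all genes passing the filter, on 12 HSC arrays for comparisons among HSC and on 16 arrays for those with CLP, and p-values were adjusted by Benjamini-Hochberg over all genes of the fit, at 0.05. The 4 contrasts among HSC share one estimate of the spread. The code was tested on simulated data.

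Deviations of same-numbered arrays correlated over 0.1 in 12 of 36 pairs (median 0.0465). For old and young HSC the correlations were 0.504, 0.419 and -0.014 for replicates 1 to 3, and for Mutator and wild-type HSC 0.339, 0.08 and -0.055. Not every pair passed, and no label ties the numbers to a shared batch, so no pairing was used. The genes named with values were Psmb5 to Psmb10, the activators, Psma8 and Psmb11, up to 6 further called members by size in each direction, or the 3 of smallest p where none was called, and up to 4 called genes (else the 2 of smallest p) of each other list. Psma7, Psmf1 in old HSC and second probe sets were singled out with their values known. The members and lists were chosen with earlier results of these data known. Alternatives were other scalings, filters, pseudocounts (1 and 64), probe set rules, eBayes settings, array sets and an actin covariate. The number of arrays limits the precision.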

Additional observations from a re-analysis of the deposited data

How the results depend on the processing

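Counts of called proteasome genes held to within 1.5 times under the other scalings, filters, pseudocounts, probe set averages and eBayes settings. Fitting only the groups compared gave 2 calls (7.75% of all genes) for old against young HSC and 12 (17%) for 32-week wild-type against young HSC. Averaging young replicates 2 and 3 gave 6 (22.4% of all genes) for CLP against young HSC. The actin covariate gave 1 (0.223% of all genes) for Mutator against wild-type HSC and 0 (0%) for 32-week wild-type against young HSC. It gave 3 (1.04%) for the difference of effects. For CLP against 32-week wild-type HSC it gave 4 and for Ly6D+ against Ly6D- CLP 1, with the shares of all genes given above. The cause was not tested. Leaving out 1 array gave 0 to 1 call for Mutator against wild-type and for the difference of effects. The fits with 1 call had 1.64% and 1.01% of all genes called. For 32-week wild-type against young HSC the range was 13 (16.5% of all genes) to 27 (30.9%). For CLP against young HSC it was 6 (22.4%) to 11 (31%). The change of Psmb8 minus Psmb5 with all probe sets averaged was 0.55 (32-week wild-type against young HSC), 1.29 (CLP against young) and 0.74 (CLP against 32-week wild-type).

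Signs turned as follows. With the actin covariate, in 32-week wild-type against young HSC: Psmb8 0.67, Psmb9 0.76, Psmb10 1.67, Psmb5 0.10, Psmb6 0.70, Psmb7 0.34, Psme1 0.034, Psme3 0.68, Psma8 1.63, Psmc5 0.49, Psma1 1.06, Psmd7 0.46, Psmd10 2.54 and Psmb2 0.35; in CLP against 32-week wild-type: Psmb10 -0.40, Psmb5 -0.89, Psmb6 -1.01 and Psmb7 -0.0092; in Ly6D+ against Ly6D- CLP: Psmb10 0.38. None of these values with the covariate passed the test, with limma adjusted p of 0.167 or more. Quantile normalization turned Psmb6 (0.11, 32-week wild-type against young) and Psmb5 (-0.028, CLP against 32-week wild-type). All probe sets averaged gave Psme3 0.43 and Psmb4 0.023 in CLP against 32-week wild-type, and the lone baseline array gave Psme3 0.022. Leaving out 1 array turned Psmb9 in Mutator against wild-type (-0.34 to 0.56), Psme4 in 32-week wild-type against young (-0.022 to 0.65), Psmb8 (-3e-04 to 0.36) and Psmb6 (-0.18 to 0.32) in CLP against young, and Psmb8 (-0.22 to 0.49), Psmb9 (-0.095 to 0.46) and Psmb10 (-0.75 to 0.011) in Ly6D+ against Ly6D- CLP.

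With the replicate number as a block, counts of calls were 0 for old against young (1.28% of all genes) and 0 for Mutator against wild-type (0%). They were 20 for 32-week wild-type against young HSC (25.2%) and 0 for the difference of effects (0.564%). For CLP they were 10 against young HSC (29.5%) and 17 against 32-week wild-type HSC (26.9%). Within CLP the count was 0, where the fit without the block called 2.68% of all genes.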

Other observations

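After the mean of each group was taken off, the proteasome genes still moved together from array to array. Over 16 arrays the median pairwise correlation (Pearson's r, as a description) was 0.623 among the 14 alpha and beta ring genes, 0.377 among the 17 genes of the 19S particle, 0.733 among the 3 immunoproteasome genes and 0.425 among all 46, against 0.019 among all 14344 genes. Psmb8 and Psmb10 were closest within the immunoproteasome, at 0.957, while Psmb9 stood at 0.733 with Psmb8 and 0.646 with Psmb10. All pairs share the same arrays, their amplification and their RNA quality.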
